A study of Mus musculus with 6 samples.

Results

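MIN6 cells, a mouse beta-cell line, were compared with primary mouse pancreatic islets on the same Affymetrix expression arrays. The comparison takes all 6 arrays of the series, chosen by their titles alone: 4 of MIN6 cells and 2 of islets. The MIN6 cultures had been infected for 48 h with an adenovirus (multiplicity of infection 250). Their medium held glucose at 4.5 g/l and 2% fetal bovine serum. The virus delivered green fluorescent protein (AdGFP, 1 array), miR-7a (AdmiR7a, 2 arrays numbered as replicates) or miR-7b (AdmiR7b, 1 array). Islets came from C57BL/6 mice, either with miR-7a2 deleted in beta cells by Cre recombinase (KO, 1 array) or wild type (WT, 1 array). The Cre driver, the age and number of the mice and the passage of the cells are not given in the sources used here. The 6 arrays thus carry 5 different conditions, and no MIN6 array is of uninfected cells. Line against tissue, virus against none, culture against isolation and any difference in RNA handling therefore cannot be told apart.

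Islets are small endocrine organs in which insulin-producing beta cells lie among glucagon-producing alpha cells, somatostatin-producing delta cells, pancreatic polypeptide cells, capillaries and resident macrophages. MIN6 cells were derived from a mouse insulinoma driven by a viral oncogene, the large T antigen of SV40, and are used because they divide without limit while still secreting insulin in response to glucose. Mature beta cells divide rarely, take up glucose through the transporter GLUT2 and keep a set of otherwise common genes, such as lactate dehydrogenase A, at low levels. In bulk tissue, fewer cells of a type and less RNA per cell cannot be told apart.

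Values are log2 probe set intensities, so a difference of 1 is a doubling. Signed differences and medians are MIN6 minus islets, and a difference given with its SE, or bare beside a gene, is a size whose direction stands in the sentence. A gene counted as different without overlap when all 4 MIN6 arrays lay on one side of both islet arrays. It was called when, in addition, the 2 system means differed by at least 1 (log2) and the limma adjusted p was under 0.05. Of 11155 genes tested, 4278 (38.4%) lay higher in MIN6 cells without overlap and 4325 (38.8%) higher in islets. Called were 2167 genes (19.4%) higher in MIN6 cells and 2403 (21.5%) higher in islets. Each list below is to be read against these shares and against the median difference of all genes, which was 0 to 2 decimals (-0.0018). An exact permutation test of 4 arrays against 2 cannot give a two-sided p below 0.133, so the adjusted p rests on limma's spread pooled over genes. That spread mixes vectors and genotypes and comes from 1 line and 2 islet preparations. Of the called genes, 534 were at a mean of 4 or more only in MIN6 cells and 735 only in islets. Such genes entered the test through the system in which they are high, and the size of their difference is limited by background. Among the 9765 genes at 4 or more in both systems, 1633 were called higher in MIN6 cells and 1668 higher in islets.

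The gap between the systems was far wider than the spread within them. Across genes, the difference between a MIN6 and an islet array had an SD of 2.04 to 2.09 (log2). Within MIN6 cells that SD was 0.20 to 0.57, the largest values being those of AdGFP against the miR-7 arrays, and between the KO and WT islets it was 0.40. Between 40.0% and 44.1% of genes lay at least 1 apart for any pair of a MIN6 and an islet array, against 0.224% to 7.91% within MIN6 cells and 3.08% within islets. Arrays of the same system nevertheless differed for some genes: of the 4570 called genes, 586 spanned at least 1 within MIN6 cells and 254 within islets. AdGFP, AdmiR7b, KO and WT are 1 array each. Vector or genotype therefore cannot be told apart from culture, islet preparation or array. With only the AdGFP and WT arrays, 3874 of the 4570 still differed by at least 1. The sign of a called gene could not turn there, because a call already asks for no overlap between the systems.

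**Figure D1:**
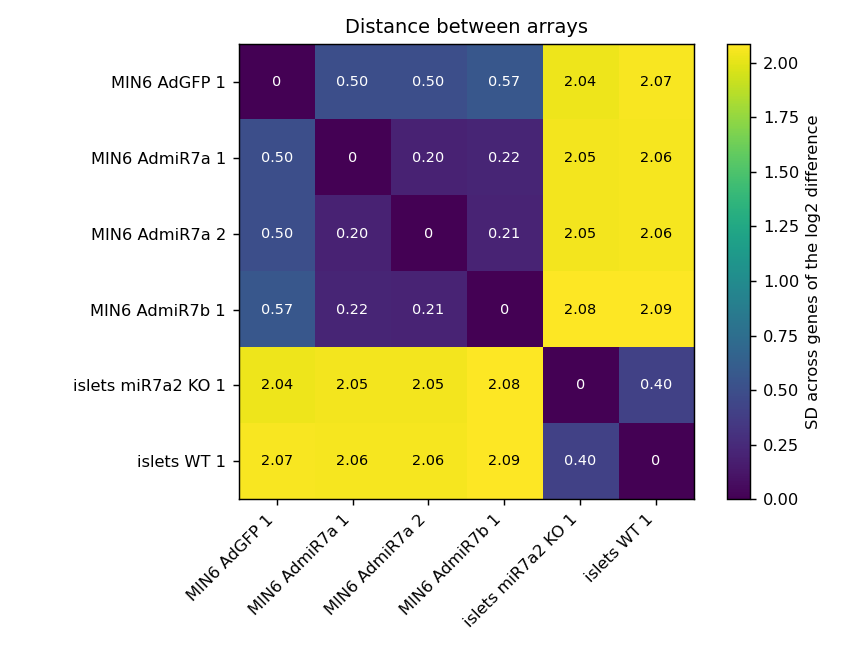
Distance between every pair of the 6 arrays, as the SD across 11155 genes of the log2 difference (colour and printed value). All pairs of a MIN6 and an islet array lie at 2.04 or more, all pairs within a system at 0.57 or less.

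The 3' to 5' difference of the control probe sets, used as a sign of RNA quality, differed with the system. The actin control probe sets were 2.65 (KO) and 2.77 (WT) higher at the 3' end than at the 5' end in islets, against 1.43 to 1.48 in MIN6 cells. For the Gapdh controls the values were 0.83 and 0.68 against at most 0.05, and for the transferrin receptor 4.48 and 3.91 against 2.40 to 2.91. The part of this in any gene's difference was not tested. Probe sets of one gene did not always concur: of 1814 called genes with at least 2 probe sets above background, 1278 (70.5%) had all of them on the called side without overlap, and 171 (9.43%) had one on the other side. Of 10 housekeeping genes tested 0 were called, with a median of 0.22.

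The insulin gene did not separate the systems. Ins2 stood at 15.8 with AdGFP, 15.9 and 15.7 with AdmiR7a, 15.9 with AdmiR7b, 15.8 in KO and 15.8 in WT islets (adjusted p = 0.88). The arrays overlap, and all lie close to the upper end of the measured range. Its probe set is of a kind that may also bind related transcripts, here those of the other insulin gene. Iapp, which encodes the amyloid peptide co-secreted with insulin, likewise overlapped at 16.1, 16.2, 16.1 and 16.2 in MIN6 cells against 16.1 and 16.1 in islets.

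The hormone genes of the other endocrine types, Gcg, Sst, Ppy and Pyy, were lower in MIN6 cells by unequal amounts. Gcg, Sst and Ppy were above 5 on every MIN6 array. Gcg, the glucagon gene, stood at 13.4 with AdGFP, 12.7 and 12.9 with AdmiR7a, 12.8 with AdmiR7b, 16.3 in KO and 16.4 in WT islets, a difference of 3.37 ± 0.19 (log2, SE; adjusted p = 1.67e-05). Both islet arrays lie above all MIN6 arrays, yet the MIN6 values are far above the background. Sst, for somatostatin, was at 9.64 with AdGFP, 9.32 and 9.28 with AdmiR7a, 9.53 with AdmiR7b, 14.7 in KO and 14.7 in WT islets, lower in MIN6 cells by 5.28 ± 0.13 (adjusted p = 4.12e-07). Ppy, for pancreatic polypeptide, was at 5.59 with AdGFP, 6.75 and 5.97 with AdmiR7a, 6.18 with AdmiR7b, 15.7 in KO and 15.6 in WT islets. Its difference was 9.53 ± 0.31. Pyy, for peptide YY, was at 4.91, 4.89, 4.89 and 4.89 in MIN6 cells against 15.6 and 15.7 in islets. Its value is identical on the 3 miR-7 arrays, as at a floor of that probe set, so its size of 10.73 is limited by background. Ghrl, for ghrelin, was below the filter everywhere, at 2.21 to 2.25 in MIN6 cells and 2.88 and 3.34 in islets. Of 6 hormone genes tested, 4 were called higher in islets and 0 in MIN6 cells.

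Hhex, the delta-cell transcription factor, was at 2.17, 2.17, 2.17 and 2.17 in MIN6 cells against 9.05 and 9.01 in islets and Rbp4, a retinol carrier abundant in delta cells, at 5.79, 6.30, 6.39 and 6.56 in MIN6 cells against 12.8 and 12.7 in islets. All 5 tested genes of the delta, PP and epsilon list were called higher in islets, with a median of -6.86. Of 5 tested alpha-cell genes only Gcg and Irx2, a homeobox factor (3.34 to 3.38 against 5.47 and 5.24), were called higher in islets. The transthyretin gene Ttr was higher in MIN6 cells by 0.73 without overlap, short of the size asked for. Irx1 overlapped, with a difference of 0.04. Slc38a5, an amino acid transporter gene linked to alpha cells, was at 13.4 with AdGFP, 13.1 and 13.05 with AdmiR7a, 13.2 with AdmiR7b, 3.47 in KO and 3.46 in WT islets. It was among the 15 genes furthest above islets, by 9.70 ± 0.12 (adjusted p = 4.18e-08).

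Of the 15 genes furthest above islets, Cck and Sct encode gut peptides, and Npy was among the 10 called genes of the highest level in MIN6 cells. They are named for that rank, not as a group. Cck, for cholecystokinin, showed the largest excess over islets of any called gene at a level of 6 or more: 15.7 with AdGFP, 15.6 and 15.5 with AdmiR7a, 15.6 with AdmiR7b, 3.27 in KO and 2.995 in WT islets, a difference of 12.46 ± 0.11 (adjusted p = 3.13e-08). Sct, for secretin, was at 12.9, 12.3, 12.4 and 12.6 in MIN6 cells against 2.73 and 2.30 in islets, 10.04 ± 0.21 apart. Npy, for neuropeptide Y, was at 15.5 with AdGFP, 15.4 and 15.3 with AdmiR7a, 15.4 with AdmiR7b, 13.1 in KO and 10.2 in WT islets. It was 3.77 ± 0.75 higher in MIN6 cells, with the KO islets well above the WT islets. Without the WT array the difference was 2.28. Both cholecystokinin receptor genes were also higher in MIN6 cells: Cckar stood at 9.58 with AdGFP, 7.30 and 7.12 with AdmiR7a, 6.71 with AdmiR7b, 2.48 in KO and 2.48 in WT islets and Cckbr at 9.86 with AdGFP, 8.57 and 8.52 with AdmiR7a, 8.49 with AdmiR7b, 2.60 in KO and 2.40 in WT islets. In both, AdGFP is above the miR-7 arrays and every MIN6 array is above both islet arrays.

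**Figure D2:**
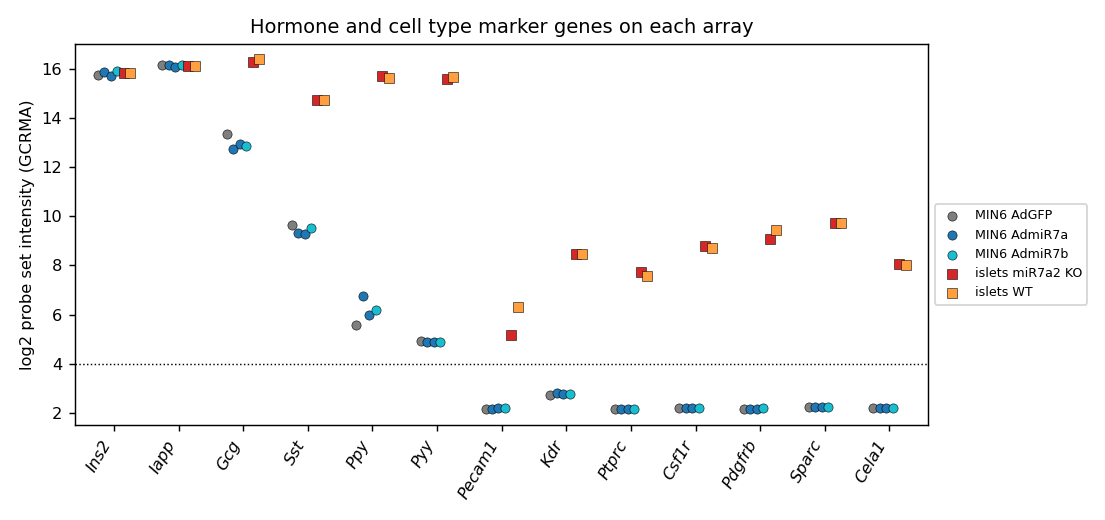
Log2 intensity of hormone genes and of markers of other islet cells on each array (circles MIN6, squares islets; the dotted line is the level of 4 used as filter). Ins2 and Iapp overlap, Gcg, Sst, Ppy and Pyy lie higher in islets, and the vascular, immune, stellate and acinar markers Pecam1 to Cela1 are below 3 on all MIN6 arrays.

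Pecam1, the endothelial adhesion gene, was at 2.17 with AdGFP, 2.17 and 2.18 with AdmiR7a, 2.18 with AdmiR7b, 5.19 in KO and 6.30 in WT islets, and its difference was 3.57 ± 0.29 (adjusted p = 9.01e-05). Of 10 endothelial genes tested, 9 were called higher in islets and 0 in MIN6 cells, with a median of -4.83. Only 4 of them were at 4 or more in both systems, 3 of which were called. The vascular growth factor receptor genes Kdr (2.75, 2.83, 2.77 and 2.79 in MIN6 cells against 8.46 and 8.44 in islets) and Flt1 (2.17, 2.17, 2.17 and 2.17 in MIN6 cells against 8.46 and 8.59 in islets) were among the 9 called. Both passed the filter through islets alone. Esam stood apart: it was measured well in MIN6 cells, at 7.38 to 8.23, and at 8.38 and 8.86 in islets (adjusted p = 0.0847). Averaged over all 12 named members, the endothelial list lay between 3.14 and 3.27 on the MIN6 arrays and between 6.97 and 7.17 on the islet arrays.

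All 14 immune genes were called higher in islets, with a median of -5.79, but 13 of them were below 4 in MIN6 cells and passed the filter through islets alone. Ptprc, the pan-leukocyte CD45 gene, was at 2.17, 2.17, 2.17 and 2.17 in MIN6 cells against 7.74 and 7.57 in islets, the macrophage receptor gene Csf1r at 2.19, 2.19, 2.19 and 2.19 in MIN6 cells against 8.80 and 8.70 in islets and the class II antigen gene H2-Aa at 2.17, 2.17, 2.17 and 2.17 in MIN6 cells against 11.5 and 11.4 in islets. Only C1qa, of complement, was also well above background in MIN6 cells (6.86 to 8.05, against 11.2 and 11.00). Of 11 stellate and fibroblast genes, 4 passed the filter, each through islets alone, so that their direction was fixed by it: Pdgfrb (7.08), Rgs5 (6.55), the matrix genes Sparc (7.50) and Col3a1 (5.22). With no filter 5 of the 11 were called higher in islets, with a median of -0.13. Col1a1, Lum and Thy1 were at or near the lowest value in both systems, and Acta2 below 4. Of 5 named ductal genes only Krt7 was tested (11.6 to 11.8 against 13.6 and 13.7), and of 5 Schwann and glial genes only Mbp, higher in islets by 1.66, with another probe set on the opposite side. Of 13 named acinar genes 3 were tested. The elastase gene Cela1 was at 2.20, 2.19, 2.19 and 2.20 in MIN6 cells against 8.04 and 8.02 in islets and Cela3b at 4.01 and 4.30 in islets, while Cpa1, Cpb1, Ctrb1 and Cel were near the lowest value on all arrays. The 2 named red blood cell genes, Hba-a1 and Alas2, were at the lowest value throughout.

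Glucose uptake and excitation genes leaned to islets. The widest gap in that direction among all called genes at 6 or more was that of Slc2a2, the gene of GLUT2: 3.84 with AdGFP, 2.52 and 2.52 with AdmiR7a, 2.52 with AdmiR7b, 14.5 in KO and 14.1 in WT islets. All MIN6 arrays are below the filter, AdGFP least so, and both islet arrays are near the top of the scale. The difference was 11.47 ± 0.42 (adjusted p = 2.34e-06). By contrast Slc2a1, the gene of the common transporter GLUT1, stood at 9.58 to 10.9 in MIN6 cells and at 11.1 and 11.04 in islets (adjusted p = 0.0596). G6pc2, the islet glucose-6-phosphatase, overlapped, with a difference of -0.02. So did Kcnj11, the pore subunit of the ATP-sensitive potassium channel, with -0.03, and its partner subunit gene Abcc8 was only just called, lower in MIN6 cells by 1.07 ± 0.26. That call was lost without AdmiR7a replicate 2, AdmiR7b, KO or WT (0.99 to 1.09), and AdGFP differed from WT by 0.44.

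In all, 10 of 18 tested genes of glucose sensing and excitation were called higher in islets and 0 in MIN6 cells, with a median of -1.21. Among the 16 at 4 or more in both systems, 8 were called higher in islets, with a median of -0.97. Slc2a2 and Gcgr passed the filter through islets alone. Among channels, the cation channel gene Trpm5 was 2.77 lower in MIN6 cells, the sodium channel gene Scn9a 2.95, the calcium channel genes Cacna1a 2.37 and Cacna1d 2.34, and the calcium-activated potassium channel gene Kcnma1 2.01. The glucagon receptor gene Gcgr was at 2.83, 2.83, 2.83 and 2.87 in MIN6 cells against 9.30 and 9.13 in islets. The incretin receptor gene Glp1r differed by 1.52 ± 0.32, at 7.08 with AdGFP, 6.70 and 6.57 with AdmiR7a, 6.38 with AdmiR7b, 8.70 in KO and 7.70 in WT islets, with 0.62 for AdGFP against WT, and Gipr overlapped, with a difference of 0.16.

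Receptor genes were split. Of 13 tested, 4 were called higher in MIN6 cells and 7 in islets (4 and 4 by the mean of all probe sets of a gene), and 10 of the 23 named were not above the filter in either system. Among the 9 at 4 or more in both systems, 2 were called higher in MIN6 cells and 5 in islets. Cckar and Cckbr passed the filter through MIN6 cells alone, Casr and Gcgr through islets alone. Their direction was fixed by it and their size is limited by background. Besides the cholecystokinin receptors, the galanin receptor gene Galr1 (1.94 ± 0.22) and the purinergic receptor gene P2ry1 (2.39 ± 0.71) were higher in MIN6 cells. P2ry1 was at 9.35 with AdGFP, 7.17 and 7.05 with AdmiR7a, 7.21 with AdmiR7b, 5.76 in KO and 4.86 in WT islets, and its call was lost without the KO array (2.84) or the WT array (1.94); AdGFP against WT gave 4.50. Higher in islets were the calcium-sensing receptor gene Casr, at 2.19, 2.18, 2.19 and 2.19 in MIN6 cells against 6.56 and 6.44 in islets, the growth hormone receptor gene Ghr (1.34), the insulin receptor gene Insr (1.93), the somatostatin receptor gene Sstr3 (1.45) and Igf1r. Igf1r was at 9.94 with AdGFP, 8.75 and 8.56 with AdmiR7a, 8.48 with AdmiR7b, 13.2 in KO and 11.3 in WT islets, with AdGFP the highest MIN6 array and WT the lower islet array, 1.39 apart. Tacr3, the neurokinin B receptor gene, overlapped at 8.74 with AdGFP, 5.22 and 6.14 with AdmiR7a, 5.47 with AdmiR7b, 8.53 in KO and 6.04 in WT islets.

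Beta-cell transcription factor genes were measured in both systems for 14 of 17 tested. Of the 17, 7 were called higher in islets and 1, Foxa1 (1.28 ± 0.19), higher in MIN6 cells, with a median of -0.76. Foxa1 passed the filter through MIN6 cells alone, so its direction was fixed by it and its size is limited by background. Among the 14 measured in both systems, 6 were called higher in islets and 0 in MIN6 cells. Pdx1, the master regulator of the pancreas and of insulin transcription, was at 13.2 with AdGFP, 12.2 and 12.3 with AdmiR7a, 12.1 with AdmiR7b, 12.1 in KO and 11.8 in WT islets. All MIN6 arrays lie above both islet arrays by a little, and limma did not call it (0.50, adjusted p = 0.205). Neurod1 (-0.06), Foxa2 (-0.40), Nkx6-1 (-0.76), Mnx1 (-0.73) and Hnf4a (-0.81) overlapped. Lower in MIN6 cells were Nkx2-2 (1.73 ± 0.21), Pax6 (1.67 ± 0.33), St18 (2.03 ± 0.39), Mlxipl, the glucose-responsive factor ChREBP (1.66 ± 0.23), Glis3 (1.36 ± 0.28) and Insm1 (1.13 ± 0.35).

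The choice of MIN6 array bears on this list: AdGFP was the highest of the MIN6 arrays for Pdx1, Nkx6-1, Pax6, Mnx1, Foxa2, Insm1, Glis3 and St18, among others. Insm1 lost its call without any one array but AdGFP (0.98 to 1.19), Glis3 without WT (1.18), and Pax6 (1.53) and St18 (2.02) without KO. AdGFP differed from WT by 0.41 for Insm1, 0.78 for Pax6, 0.89 for Glis3 and 1.09 for St18. With AdGFP against WT alone, 5 genes were at least 1 higher in islets and 2 in MIN6 cells. Neurog3, the endocrine progenitor factor, was at 2.17 with AdGFP, 2.17 and 2.17 with AdmiR7a, 2.17 with AdmiR7b, 7.29 in KO and 6.65 in WT islets. It was measured in both islet preparations and at or next to the lowest value of the scale in the line (4.80 ± 0.18, adjusted p = 2.56e-06).

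Of 16 genes of insulin processing and granules, all above the filter in both systems, 4 were called higher in islets and 1 in MIN6 cells, with a median of -0.39. Without the WT array the counts were 2 and 0. A further 8 lay higher in islets without overlap by less than 1, among them Cpe, the carboxypeptidase that trims proinsulin (0.33), Chgb (0.49) and Scg5 (0.46). The convertase gene Pcsk1 overlapped, with a difference of 0.01. Slc30a8, the zinc transporter of the insulin granule, was at 12.1 with AdGFP, 11.5 and 11.4 with AdmiR7a, 11.3 with AdmiR7b, 14.1 in KO and 14.3 in WT islets, lower in MIN6 cells by 2.61 ± 0.24 (adjusted p = 0.000179). Ucn3, a peptide of mature beta cells, was lower by 1.67 ± 0.38 and the amidating enzyme gene Pam by 1.45 ± 0.12. Ero1b, an oxidase for insulin folding, was lower by 1.38 ± 0.42, though AdGFP (14.5 with AdGFP, 13.3 and 13.2 with AdmiR7a, 13.05 with AdmiR7b, 15.03 in KO and 14.7 in WT islets) nearly reached the islets. AdGFP against WT gave 0.25, and the call was lost without any one array but AdGFP (1.22 to 1.52). Vgf, a granule peptide precursor, was higher in MIN6 cells by 1.64 ± 0.37. Without the WT array the calls of Vgf (1.11) and Ucn3 (1.45) were lost, and AdGFP against WT gave 2.77 and 1.02.

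Exocytosis genes leaned the same way, with 10 of 24 called higher in islets and 1 in MIN6 cells and a median of -0.62. The SNARE genes Snap25 (0.14) and Stx1a (-0.01) overlapped. Higher in islets were the calcium sensor gene Syt7 (2.41 ± 0.19), the granule docking genes Exph5 (3.30 ± 0.17) and Sytl4 (2.12 ± 0.17), the priming genes Cadps (1.64), Cadps2 (4.84) and Unc13b (1.39), and Dnajc5 (1.26), of which another probe set lay on the opposite side. Cadps2 was at the lowest value on all MIN6 arrays and passed the filter through islets alone, so the size of its difference is limited by background. The complexins, clamps of vesicle fusion, went opposite ways. Cplx1 was at 9.44 with AdGFP, 7.67 and 7.38 with AdmiR7a, 7.28 with AdmiR7b, 5.78 in KO and 5.44 in WT islets, higher in MIN6 cells by 2.33 ± 0.63. Cplx2 was at 8.81 with AdGFP, 8.22 and 8.04 with AdmiR7a, 7.98 with AdmiR7b, 11.01 in KO and 11.2 in WT islets, lower by 2.86 ± 0.25. By the mean over all probe sets of a gene, 6 exocytosis genes were called higher in islets and 2 in MIN6 cells. Without the KO array, or without the WT array, 0 were called higher in MIN6 cells, so that the call of Cplx1 was lost, as was that of Dnajc5 (1.20 and 1.32).

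Genes that beta cells normally keep low were split between the systems. Of 16 tested, 7 were called higher in MIN6 cells and 6 in islets, with a median of 0.74. Over the 11 at 4 or more in both systems the counts were 5 and 3. The lactate dehydrogenase gene Ldha was at 11.7 with AdGFP, 11.1 and 10.9 with AdmiR7a, 10.7 with AdmiR7b, 7.06 in KO and 7.56 in WT islets, higher in MIN6 cells by 3.79 ± 0.30 (adjusted p = 8.65e-05). Slc16a1, the lactate and pyruvate transporter MCT1, was at 11.98 with AdGFP, 12.00 and 11.99 with AdmiR7a, 11.8 with AdmiR7b, 5.45 in KO and 5.48 in WT islets, 6.49 ± 0.09 apart (adjusted p = 5.6e-08). Neither overlaps. The low-Km hexokinase gene Hk1 differed by 3.42 ± 0.11, the thioesterase gene Acot7 by 6.28 ± 0.21, the ornithine aminotransferase gene Oat by 5.97 ± 0.12, Igfbp4 by 4.01 ± 0.13 and the chemokine gene Cxcl12 by 2.68 ± 0.39. Higher in islets were Zfp36l1 (5.01), the glutathione transferase gene Mgst1 (3.62), the catalase gene Cat (3.19), Arhgdib (2.29), Maf (1.27) and Smad3 (1.14), whose call was lost without the WT array (0.93). Several of these 6 are also expressed in vascular or immune cells, whose markers were higher in islets. The part of those cells was not tested.

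**Figure D3:**
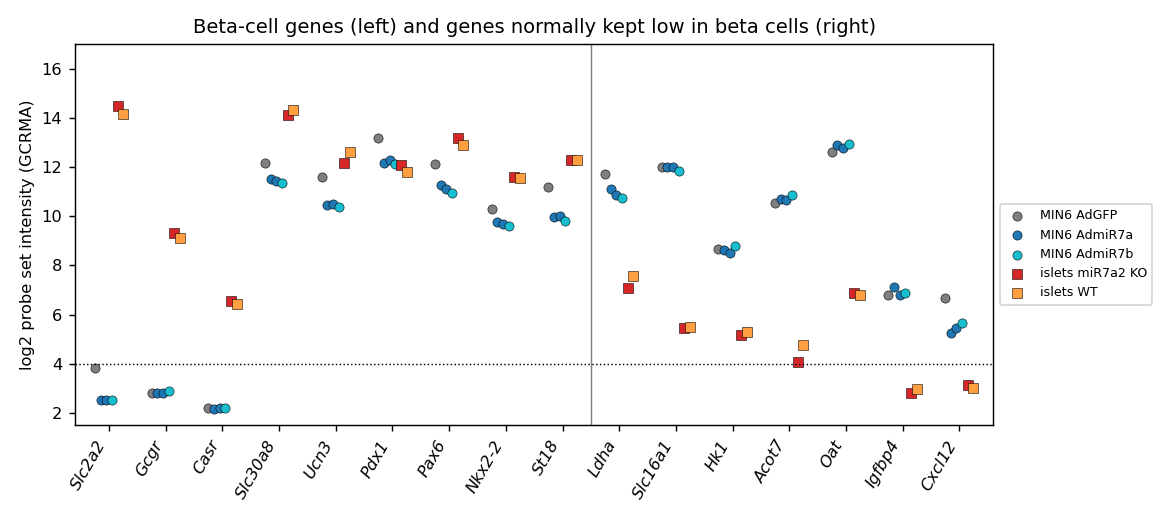
Log2 intensity on each array of beta-cell genes (left of the line) and of genes that beta cells usually keep low (right; circles MIN6, squares islets; the dotted line marks 4). Slc2a2, Gcgr and Casr are below 4 on all MIN6 arrays, and the genes from Ldha to Cxcl12 are higher on every MIN6 array than in islets.

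Glycolysis genes were higher in MIN6 cells in part. Of 18 tested, 7 were called higher in MIN6 cells and 1 in islets, with a median of 0.80. Besides Hk1, Ldha and Slc16a1 these were the phosphofructokinase gene Pfkp (1.82 ± 0.08), Tpi1 (1.66 ± 0.09), Pgam1 (1.55 ± 0.09) and the pyruvate kinase gene Pkm (1.12 ± 0.09). Pklr, the pyruvate kinase of liver and islets, was higher in islets by 1.42 ± 0.16, but passed the filter through islets alone. After quantile normalization of the tested genes, 0 of the list were called higher in islets. Without the AdGFP array 4 genes of the list were called higher in islets. The aldolase gene Aldoa overlapped, with a difference of 0.04. Of 21 respiratory chain genes 16 lay higher in MIN6 cells without overlap, but mostly by less than 1, and 4 were called. The 4 were Cox7a1 (4.15), Uqcrfs1 (1.44), Atp5o (1.28) and Uqcrc1 (1.01). Cox6a2 was called higher in islets (1.49). The call of Uqcrc1 was lost without AdmiR7a replicate 1, AdmiR7b or KO (0.89 to 0.99), and that of Cox6a2 without KO (1.25) or WT (1.73). The median was 0.51. Of 17 cholesterol synthesis genes 7 were called higher in MIN6 cells and 1, Nsdhl, in islets, with a median of 0.78. Dhcr7 (2.90 ± 0.20), Sc5d (1.77 ± 0.11), Idi1 (1.65 ± 0.15) and Cyp51 (1.47 ± 0.11) showed the largest differences on the side of MIN6 cells, and Nsdhl was 1.52 ± 0.11 higher in islets.

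Cell division genes were the list with the highest median on the side of MIN6 cells among those examined. Of 41 tested, 36 were called higher in MIN6 cells and 2 in islets, with a median of 6.86. Only 18 of the 41 were at 4 or more in both systems, and among these 14 were called higher in MIN6 cells, with a median of 4.08. Mki67, the proliferation antigen Ki-67, was at 13.4 with AdGFP, 13.2 and 13.01 with AdmiR7a, 12.9 with AdmiR7b, 2.36 in KO and 2.44 in WT islets (10.70 ± 0.15, adjusted p = 5.65e-08). The mitotic kinase gene Cdk1 was at 12.3 with AdGFP, 12.1 and 12.1 with AdmiR7a, 12.2 with AdmiR7b, 2.36 in KO and 2.36 in WT islets, with islets near the lowest value. Of the 15 genes furthest above islets, 10 were from this list: Mki67, Top2a, Ube2c, Birc5, Cdk1, Ccna2, Nusap1, Cdc20, Ccnb2 and Bub1, at 8.97 to 10.70. Of the other 5, Nek2 and Pbk encode mitotic kinases. Replication genes were measured in islets too. Pcna, the sliding clamp, was at 14.9, 14.9, 14.9 and 14.99 in MIN6 cells against 11.8 and 11.9 in islets, Mcm4 at 12.2, 12.2, 12.6 and 12.2 in MIN6 cells against 8.87 and 8.99 in islets and Mcm5 at 13.4, 13.7, 13.6 and 13.8 in MIN6 cells against 6.13 and 5.91 in islets.

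Ccnd1 and Ccnd2, genes of D-type cyclins, which act at the start of the cycle, were higher in islets. Ccnd1 was at 2.32 with AdGFP, 2.40 and 2.32 with AdmiR7a, 2.43 with AdmiR7b, 11.1 in KO and 11.1 in WT islets. It was near the lowest value in MIN6 cells and high in both islet preparations (8.70 ± 0.08 lower in MIN6 cells, adjusted p = 3.31e-08). Ccnd2 was at 12.1 with AdGFP, 11.98 and 11.8 with AdmiR7a, 11.8 with AdmiR7b, 13.9 in KO and 13.4 in WT islets, lower in MIN6 cells by 1.72 ± 0.17. Ccnd3 overlapped, with a difference of -0.12, and their partner kinase gene Cdk4 was 0.61 higher in MIN6 cells without overlap. The E-type cyclin genes were higher in MIN6 cells, Ccne1 by 5.04 ± 0.08 and Ccne2 by 5.21 ± 0.15.

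Cycle inhibitor genes also leaned to MIN6 cells. Of 10 tested, 6 were called higher in MIN6 cells and 0 in islets, with a median of 1.88. Among the 9 at 4 or more in both systems, 5 were called, with a median of 1.57. Cdkn2a passed the filter through MIN6 cells alone. Cdkn2a, the locus of p16 and p19ARF, was at 8.69 with AdGFP, 9.20 and 9.35 with AdmiR7a, 9.52 with AdmiR7b, 2.45 in KO and 2.30 in WT islets (6.82 ± 0.24, adjusted p = 1.85e-06). Cdkn2c, for p18, differed by 5.60 ± 0.16, Cdkn2d, for p19, by 3.41 ± 0.16 and Cdkn1b, for p27, by 1.57 ± 0.12. Cdkn1a, for p21, was at 11.1 with AdGFP, 11.8 and 12.02 with AdmiR7a, 12.4 with AdmiR7b, 10.2 in KO and 9.06 in WT islets, 2.20 ± 0.44 apart, a call lost without the WT array (1.62). Rb1, the retinoblastoma gene, overlapped, with a difference of -0.33, while its relative Rbl1 was 2.64 ± 0.16 higher in MIN6 cells. Of 15 genes induced by p53, 1 (Cdkn1a) was called higher in MIN6 cells and 3 in islets, with a median of -0.21. Within MIN6 cells some of them varied between arrays. Plk2 was at 4.11 with AdGFP, 6.52 and 7.26 with AdmiR7a, 7.47 with AdmiR7b, 8.13 in KO and 8.60 in WT islets. With AdGFP against WT alone 6 of the 15 were at least 1 higher in islets. Calls on that side numbered 5 without the AdGFP array and 2 without the WT array.

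**Figure D4:**
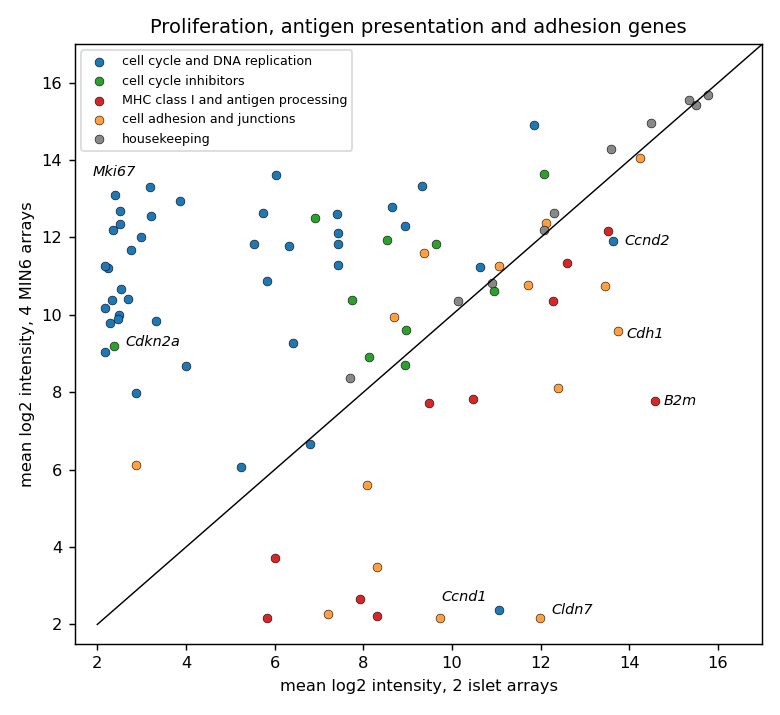
Mean log2 intensity in MIN6 cells (4 arrays) against islets (2 arrays) for the tested members of 5 gene lists; the line marks equal levels. Most cell cycle genes (blue) lie far above the line, with Ccnd1 and Ccnd2 below it, while antigen presentation genes (red) lie below it.

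Promoters of the cell cycle list were searched for letters of textbook elements of mitotic genes, the CCAAT box bound by NF-Y (CCAAT) and the cell cycle homology region (TTTGAA). Those of Cdk1, Ccnb2 and Mki67, among the 15 genes furthest above islets, are shown as examples that hold both; they were chosen for that and do not stand for the list. Each is the 250 bases upstream of the first start listed by RefSeq (GRCm38.p6), 5′ to 3′ in the direction of the gene, with CCAAT or TTTGAA on either strand in capitals.
Cdk1, chr10:69352913-69353162, minus strand: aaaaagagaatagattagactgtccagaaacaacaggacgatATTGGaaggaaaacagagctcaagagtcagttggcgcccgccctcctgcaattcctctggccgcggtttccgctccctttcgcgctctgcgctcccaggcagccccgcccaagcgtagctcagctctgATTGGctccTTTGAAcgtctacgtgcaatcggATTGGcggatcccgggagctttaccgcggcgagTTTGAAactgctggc
Ccnb2, chr9:70421555-70421804, minus strand: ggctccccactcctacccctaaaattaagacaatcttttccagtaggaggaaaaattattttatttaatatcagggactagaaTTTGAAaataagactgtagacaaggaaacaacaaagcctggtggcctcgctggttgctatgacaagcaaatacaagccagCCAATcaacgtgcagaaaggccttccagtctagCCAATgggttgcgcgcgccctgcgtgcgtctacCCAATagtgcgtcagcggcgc
Mki67, chr7:135716380-135716629, minus strand: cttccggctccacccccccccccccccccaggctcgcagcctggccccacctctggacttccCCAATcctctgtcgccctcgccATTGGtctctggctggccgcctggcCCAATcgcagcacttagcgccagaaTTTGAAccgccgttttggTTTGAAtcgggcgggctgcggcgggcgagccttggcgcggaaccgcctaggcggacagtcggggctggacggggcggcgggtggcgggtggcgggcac

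CCAAT was found on either strand in 22 of 32 cell cycle genes with a sequence (68.8%), against 3369 of 9117 genes tested (37.0%). TTTGAA was found in 8 of the 32, against 9.95%. The E2F-like letters TTTCGCGC or TTTGGCGC were in 3 of the 32 (9.38%), against 1.43%. None of these letters was particular to this list. The class I antigen presentation list, described below, was higher in islets. There CCAAT was in 6 of 9 genes (66.7%), the E2F-like letters in 2 (22.2%) and TTTGAA in 1 (11.1%). Of 14 interferon-induced genes CCAAT was in 4 (28.6%), TTTGAA in 3 (21.4%) and the E2F-like letters in 0. CCAAT and TTTGAA can share a base where they abut. The letters were chosen with the expression results known, and a match is a description of letters, not of binding.

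Antigen presentation genes were lower in the line, including all 6 at 4 or more in both systems. All 10 tested members of the class I list were called higher in islets, with a median of -2.46, and -1.83 over these 6. The rest passed the filter through islets alone, so that their direction was fixed by it. B2m, the light chain that every class I molecule needs, was at 7.64 with AdGFP, 7.64 and 7.77 with AdmiR7a, 8.08 with AdmiR7b, 14.6 in KO and 14.5 in WT islets, lower in MIN6 cells by 6.80 ± 0.15 (adjusted p = 2.55e-07). The MIN6 arrays lie close together and far from both islet arrays. The immunoproteasome genes Psmb8 (2.22, 2.22, 2.23 and 2.22 in MIN6 cells against 8.15 and 8.48 in islets) and Psmb9 (2.64, 2.64, 2.64 and 2.72 in MIN6 cells against 7.78 and 8.05 in islets) were near background in MIN6 cells. The peptide transporter genes Tap1 (3.22 with AdGFP, 3.18 and 3.09 with AdmiR7a, 5.36 with AdmiR7b, 6.28 in KO and 5.73 in WT islets) and Tap2 (3.65), the chaperone gene Tapbp (1.91) and the trimming enzyme gene Erap1 (2.63) were lower as well. The call of Tap1 was lost without either AdmiR7a array, KO or WT (2.02 to 2.56). The heavy chain genes H2-K1 (1.26) and H2-D1 (1.33) showed smaller differences, but they belong to a family of near-identical genes whose probe sets may share signal. Immune markers were higher in the same islets, and their part in these differences was not tested. With AdGFP against WT alone 8 of the 10 were at least 1 higher in islets.

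Interferon-induced genes went the same way, with 12 of 16 called higher in islets and 1, Ifit2 (1.95 ± 0.20), higher in MIN6 cells, and a median of -3.06. Most passed the filter through islets alone: over the 5 at 4 or more in both systems, 2 were called higher in islets and 1 in MIN6 cells, with a median of -1.10. The RNA sensor gene Ifih1 was at 2.17, 2.30, 2.32 and 2.32 in MIN6 cells against 8.60 and 8.88 in islets, Ifit1 at 2.17, 2.17, 2.17 and 2.17 in MIN6 cells against 7.08 and 6.68 in islets and Bst2 at 3.58, 2.95, 3.75 and 3.91 in MIN6 cells against 8.49 and 8.11 in islets. Mx1 differed between the islet preparations. It was at 2.37 with AdGFP, 2.38 and 2.38 with AdmiR7a, 2.28 with AdmiR7b, 8.42 in KO and 2.54 in WT islets (adjusted p = 0.102), high in KO and near the MIN6 arrays in WT. Rsad2 stood at 5.20 with AdGFP, 7.70 and 7.49 with AdmiR7a, 7.88 with AdmiR7b, 8.89 in KO and 8.13 in WT islets. It varied between the MIN6 arrays, with AdGFP the lowest, and was not called.

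The class I and interferon-induced promoters were searched for the letters of the interferon-stimulated response element, 2 copies of GAAA with any 2 letters between, on both strands. Those of B2m, the single class I gene with these letters, and of Ifit1 are shown as examples that hold them, with the letters in capitals. The windows are as above.
B2m, chr2:122147437-122147686, plus strand: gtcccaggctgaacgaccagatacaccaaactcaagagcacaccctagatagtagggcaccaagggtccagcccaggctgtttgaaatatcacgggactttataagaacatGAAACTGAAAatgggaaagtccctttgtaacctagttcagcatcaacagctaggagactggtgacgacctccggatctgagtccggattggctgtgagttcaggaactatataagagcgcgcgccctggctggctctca
Ifit1, chr19:34640639-34640888, plus strand: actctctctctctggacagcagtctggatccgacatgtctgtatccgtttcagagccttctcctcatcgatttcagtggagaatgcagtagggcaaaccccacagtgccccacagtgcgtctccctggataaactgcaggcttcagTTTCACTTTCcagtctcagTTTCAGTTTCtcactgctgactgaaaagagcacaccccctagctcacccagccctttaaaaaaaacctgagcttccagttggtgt

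These letters were in 7 of 14 interferon-induced genes with a sequence, in 1 of 9 class I genes, B2m (11.1%), and in 2.45% of all genes tested. The absence of the letters says only that they are not in this window.

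Of 15 adhesion and junction genes tested, 8 were called higher in islets and 3 in MIN6 cells, with a median of -2.48. Over the 10 at 4 or more in both systems, 4 were called higher in islets and 2 in MIN6 cells, with a median of -0.57. Cdh1, for E-cadherin, was at 9.39 with AdGFP, 9.67 and 9.74 with AdmiR7a, 9.58 with AdmiR7b, 13.8 in KO and 13.7 in WT islets, lower in MIN6 cells by 4.15 ± 0.12 (adjusted p = 8.08e-07). Cdh2, for N-cadherin, overlapped, with a difference of 0.27. Epcam was lower by 4.27 ± 0.13, the occludin gene Ocln by 4.82 ± 0.08, and the claudin genes Cldn3, Cldn4 and Cldn7 by 4.94, 7.55 and 9.81. All 3 claudins were near the lowest value on every MIN6 array. The desmosome gene Dsp, outside the list, was at 2.21, 2.22, 2.21 and 2.21 in MIN6 cells against 13.1 and 13.2 in islets and among the 15 genes furthest above MIN6 cells. Gjd2, for connexin 36, which couples beta cells electrically, was at 11.7 with AdGFP, 10.5 and 10.5 with AdmiR7a, 10.3 with AdmiR7b, 13.4 in KO and 13.5 in WT islets, lower by 2.71 ± 0.40. Higher in MIN6 cells were Cadm1 (2.21 ± 0.22), Efna5 (1.25 ± 0.22) and Epha5 (3.23 ± 0.42).

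Of 15 tested genes of basement membrane and integrins, 6 were called higher in islets and 1, Itgb1 (1.11 ± 0.17), higher in MIN6 cells. Without the KO array the counts were 7 and 0, with Itgb1 at 0.87. The 6 were Col4a1 (4.24), Col4a2 (6.98), Nid1 (5.99), Nid2 (3.95), Lama4 (3.13) and Lamb1 (2.89). In islets the capillary endothelium is known to make basement membrane for the beta cells. The part of endothelial cells in these differences was not tested. The list's median was -0.38. Over the 11 genes at 4 or more in both systems, 2, Col4a1 and Lamb1, were called higher in islets and 1 in MIN6 cells. The median of these 11 was -0.12. The other genes called higher in islets passed the filter through islets alone, so that their direction was fixed by it.

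Of 10 neuronal genes tested, 6 were called higher in MIN6 cells and 1, Map2 (1.38 ± 0.13), in islets, with a median of 1.41, or 0.99 over the 8 at 4 or more in both systems. The neurofilament genes Nefl (11.2 with AdGFP, 11.2 and 11.3 with AdmiR7a, 11.5 with AdmiR7b, 2.46 in KO and 2.73 in WT islets) and Nefm (5.09 ± 0.09) led, with the growth cone gene Gap43 (4.57 ± 0.15), Stmn2 (3.56 ± 0.32), the RNA-binding protein gene Elavl4 (1.66 ± 0.11) and Tubb3 (1.16 ± 0.23), whose call was lost without the WT array (0.79).

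Imprinted genes were split between the systems, with 5 of 14 called higher in MIN6 cells and 6 in islets. Among the 10 at 4 or more in both systems, 4 were called higher in MIN6 cells and 3 in islets, with a median of 0.01. The other called genes, among them Dlk1, Grb10 and Mest, passed the filter through 1 system alone. Their direction was fixed by it and their size is limited by background. Igf2, the fetal growth factor gene, was at 13.4 with AdGFP, 13.03 and 13.04 with AdmiR7a, 13.1 with AdmiR7b, 4.46 in KO and 4.84 in WT islets (8.49 ± 0.16, adjusted p = 1.28e-07). Dlk1, a preadipocyte factor gene of another imprinted cluster, was at 9.69, 9.60, 9.50 and 9.57 in MIN6 cells against 3.39 and 3.36 in islets, while Meg3 and Rian, noncoding RNAs of the same cluster, were higher in islets by 2.16 ± 0.11 and 1.73 ± 0.10. One probe set of Rian lay on the opposite side. Plagl1 (2.44 ± 0.27), Igf2r (1.77 ± 0.13) and Nnat were also higher in MIN6 cells. Nnat differed between the islet preparations, at 11.4 with AdGFP, 10.7 and 10.7 with AdmiR7a, 10.8 with AdmiR7b, 7.46 in KO and 4.63 in WT islets. Ndn (6.04 ± 0.16), Grb10 (7.45 ± 0.36), Sgce (3.99 ± 0.12) and Mest (3.02 ± 0.39) were higher in islets.

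Xist, the RNA that silences an X chromosome in female cells, was at 2.17 with AdGFP, 2.17 and 2.17 with AdmiR7a, 2.17 with AdmiR7b, 13.5 in KO and 13.5 in WT islets. The Y-linked genes Eif2s3y, Kdm5d and Uty were at or near the lowest value on all 6 arrays, in the line as in both islet preparations.

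The list of endoplasmic reticulum stress holds 17 genes, all at 4 or more in both systems, of which 5 were called higher in islets and 0 in MIN6 cells, with a median of -0.48. These were Sel1l (2.23 ± 0.17), Trib3 (1.93 ± 0.19), Ddit3 (1.80 ± 0.38), Dnajb9 (1.22 ± 0.09) and Herpud1 (1.17 ± 0.10), and 11 of the 17 lay higher in islets without overlap. Of the chaperone genes, Hspa5 (-0.26), Hyou1 (-0.65) and Pdia4 (-0.52) did so by less than 1, while Calr (-0.02) and Hsp90b1 (0.10) overlapped. The call of Ddit3 was lost without the KO array (1.74) or the WT array (1.86). Of 12 immediate early genes, 4 were called higher in MIN6 cells, Nr4a1 (3.81 ± 0.13), Fos (2.59 ± 0.24), Atf3 (2.11 ± 0.65) and Nr4a2 (1.68 ± 0.15). Ier3 (2.75 ± 0.28) and Zfp36 (1.21 ± 0.15) were called higher in islets. Atf3 varied between the MIN6 arrays, at 6.91 with AdGFP, 9.01 and 8.99 with AdmiR7a, 9.06 with AdmiR7b, 6.37 in KO and 6.40 in WT islets. AdGFP against WT gave 0.51, and the call was lost without any one array but AdGFP (1.92 to 2.13).

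**Figure D5:**
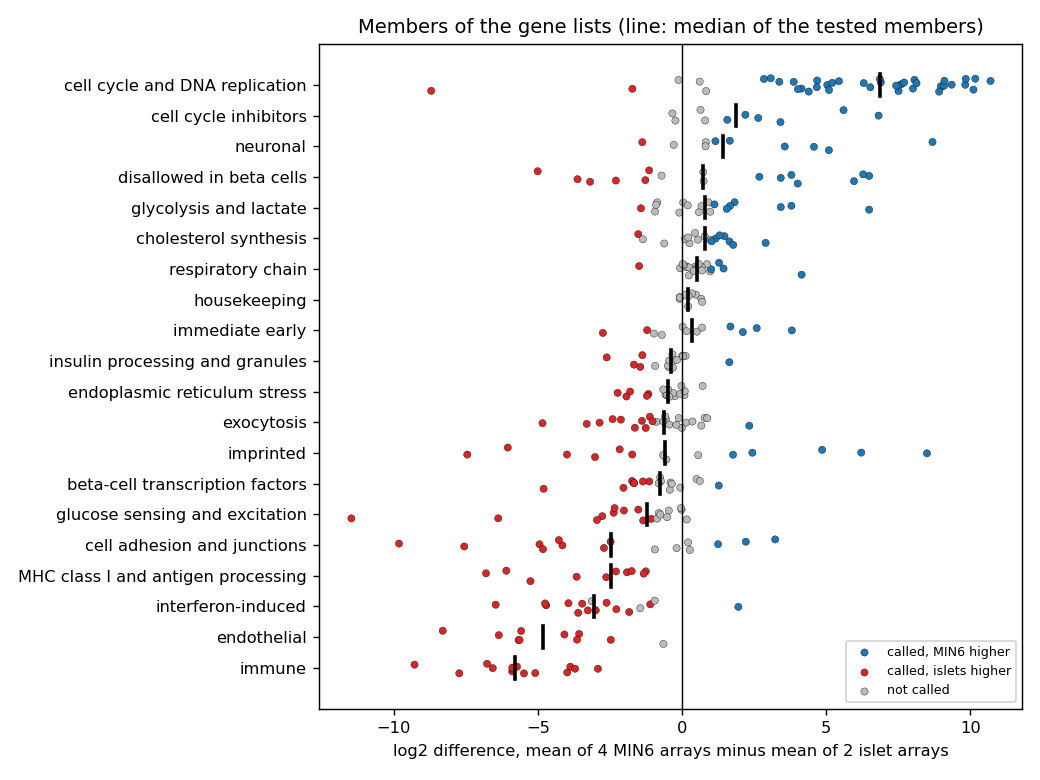
Log2 difference of each tested member of 20 gene lists, mean of 4 MIN6 arrays minus mean of 2 islet arrays (blue called higher in MIN6 cells, red called higher in islets, grey not called; black bars mark list medians). Cell cycle genes reach furthest to the MIN6 side, with a median of 6.86, and of the lists drawn the immune and endothelial ones have the lowest medians, -5.79 and -4.83.

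Beyond the lists, the genes furthest above MIN6 cells after Slc2a2, Xist, Dsp and Pyy were Serpina10 (10.26), Olfm4 (10.11), the matrix Gla protein gene Mgp (10.02), the aminopeptidase A gene Enpep (9.93), Esm1, an endothelial gene (9.89), Smim22 (9.85), Tmem30b (9.82) and Stox2 (9.18). All were below 4 on the MIN6 arrays. Among called genes of the highest level in islets were the metallothionein genes Mt1 (1.52 ± 0.35) and Mt2 (1.20 ± 0.20), Hadh, which restrains insulin release in beta cells (2.24 ± 0.19), and Cltrn, for collectrin (1.29 ± 0.11). On the side of MIN6 cells these were, besides Cck, Npy and Pcna, the desaturase gene Scd2 (1.71 ± 0.25), the kinetochore gene Spc25 (1.80 ± 0.27), Dynll1 (1.81 ± 0.12), Ctsz (1.76 ± 0.10), Prkar1a (1.09 ± 0.23), Snrpe (1.07 ± 0.10) and Hnrnpa2b1. Hnrnpa2b1 (1.08 ± 0.13) has a probe set on the opposite side. Leaving out 1 array ended the calls of Mt1 (1.45 without KO, 1.58 without WT), Prkar1a (0.92 without AdGFP, 1.09 without KO or WT) and Hnrnpa2b1 (0.89 without KO).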

How the data were processed

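The authors deposited log2 probe set intensities of 6 arrays, made with GCRMA and the affy package per the submitters' processing notes, which give no versions. Which arrays entered that normalization is not given in the sources used here. About 28.2% to 29.7% of the 45101 probe sets sat at the lowest value, 2.17, on each array. Of the probe sets, 34958 carried 1 gene symbol, 932 several and 9211 none. Symbols were updated through Entrez identifiers (34754 matched) with the RefSeq table of GRCm38.p6. Each of 18194 genes was represented by the probe set whose mean across arrays was highest. A gene was tested when the higher system mean was at least 4. The 4 MIN6 arrays were compared with the 2 islet arrays by limma 3.58.1 (R 4.3.3, 4 residual degrees of freedom), two-sided, with Benjamini-Hochberg adjustment over 11155 genes. No label says that the AdmiR7a cultures were separate, so the spread may be technical. Depth does not apply; the number of arrays limits the precision.

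Outside the gene lists, the 15 called genes with the largest difference on each side and the 10 with the highest level, at 6 or more, could be named. Members and lists were chosen with earlier results of these data known. List genes with no named probe set were not analysed here.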

Additional observations from a re-analysis of the deposited data

How the results depend on the processing

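The count of called genes stayed within 1.5 times its value under 17 of the 18 alternatives in each direction. With no minimum difference it was 3810 higher in MIN6 cells and 3854 higher in islets, since smaller differences are then counted. Of 4570 called genes, 72.2% were called again, in the same direction, among genes at 4 or more in both systems, where fewer genes are tested. The mean of all probe sets of a gene gave 73.3%, with 32 genes turned in sign, AdGFP against WT alone 84.8%, and leaving out 1 array 87.8% to 97.6%. Without the KO or the WT array 1 islet array remains, which is assumed to vary like the others. Among named genes, Hnrnpa2b1 turned to -0.021 with the mean of all probe sets; the cause was not tested. Counts without overlap also stayed within 1.5 times. Background and array number limit the low genes. No paired analysis was possible because no label pairs a MIN6 culture with an islet preparation.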

Other observations

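By chromosome (RefSeq names, autosomes and X), the median difference over genes at 4 or more in both systems ran from -0.19 on chromosome 13 (370 genes) to 0.17 on chromosome 5 (656 genes), with 0.14 on chromosome 7 (710 genes). On chromosome 13, 29.6% of 419 tested genes were called higher in islets and 14.8% higher in MIN6 cells. On chromosome 7 the shares were 19.2% and 22.5% of 812 genes. On chromosome 3 they were 26.3% and 15.1% of 562 genes. These shares were looked at after the other results were known, neighbouring genes are not independent, and no test was made.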
